A study of Mus musculus with 6 samples.

Results

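The genes described here build, coat, crosslink and pull on actin filaments. They were chosen by symbol, 9 of the 24786 symbols in the count table: the cytoplasmic actins Actb and Actg1, the tropomyosins Tpm1 and Tpm4, the myosin II heavy chains Myh9 (isoform IIA) and Myh14 (isoform IIC), the alpha-actinins Actn1 and Actn4, and the filamin Flna. All 9 were found, each as 1 row, and all 9 had enough counts to be tested. Actin filaments are polymers of actin monomers, and in cells outside muscle they are built from beta-actin (Actb) and gamma-actin (Actg1). Tropomyosins lie along the filament and set which proteins can bind it. Alpha-actinins and filamins join filaments into bundles and meshes, and non-muscle myosin II pulls on them. In the gut epithelium these proteins form the stress-bearing ring at cell junctions and the terminal web, the mesh in which the microvilli of absorptive cells are rooted.

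The RNA came from wild-type mouse intestinal organoids, epithelial structures cultured from gut tissue. They were dissociated for 10 min into single cells and cultured for 16 h, either with 100 µM tyramine, a bacterial amine derived from tyrosine (3 libraries), or as controls (3 libraries). The control labels give DMSO as the treatment and the study design gives control medium, and the sources used here do not say whether DMSO was also in the tyramine cultures, nor give the gut segment and the age of the donor mice. Libraries held 28316372 to 35035955 counts. The labels do not say whether replicates were separate cultures or animals, so p-values measure the spread among the 6 libraries at hand, and part of that spread may be technical.

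The libraries carried the RNA of an epithelium. The 8 epithelial markers summed to 15888 to 17347 CPM (counts per fixed total, relative to the TMM-scaled library size) in controls and 14374 to 15882 CPM with tyramine, with Cdh1 and Krt18 higher and Epcam, Krt19, Vil1 and Cdx2 lower. Smooth muscle and pericyte markers (10 genes) summed to 13.7 to 15.8 CPM in controls and 18.4 to 24.9 CPM with tyramine, and fibroblast markers (10 genes) to 13.8 to 15.1 and 11.2 to 13.2 CPM. Endothelial markers (6 genes) stayed at or below 2.47 CPM and immune markers (7 genes) at or below 11.2 CPM in every library. Of the 15 testable genes of these 4 other lists, 0 passed the edgeR test and 1 was past an unadjusted p of 0.05, the smooth muscle myosin Myh11, at 9.21 to 9.71 CPM in controls and 12.7 to 20.2 CPM with tyramine. Over all tested genes 25.8% passed. Apart from Myh11, the 15 genes were at or below 6.94 CPM in every library, where changes are hard to call. The 0 thus does not show that they were unchanged. The part of these other cell types in the results below was not tested, and in bulk RNA fewer cells of a type cannot be told apart from less RNA per cell. Counts differed more within the tyramine group (chi-square of their counts, divided by its degrees of freedom, 51.1 to 95.0, highest for the comparisons with replicate 3) than within the controls (25.8 to 33.5).

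In the tyramine libraries the set did not move as a block: within the tropomyosins and the myosins 1 gene rose while its relative fell. Flna, Myh9 and Tpm1 rose, Myh14, Tpm4 and Actb fell, and Actg1, Actn1 and Actn4 did not pass the test (quasi-likelihood F-test of edgeR, p under 0.05 after Benjamini-Hochberg adjustment over all tested genes). That is 3 of 9 rising, where 12.5% of the 12139 tested genes rose, and 3 of 9 falling, where 13.3% fell, or 25.8% in either direction. The libraries of the groups did not overlap for 8 of the 9 genes, against 44.5% of all tested genes. The members were chosen with earlier results of these data known. Such a choice can itself raise these shares above those of all tested genes, so they are no test of the set. Apart from Flna the changes were small: 8 of 9 members, and 72.8% of all tested genes, had a fitted change of less than 2-fold, and the members' median log2 fold change was 0.14 beside 0.00 for all tested genes.

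**Figure D1:**
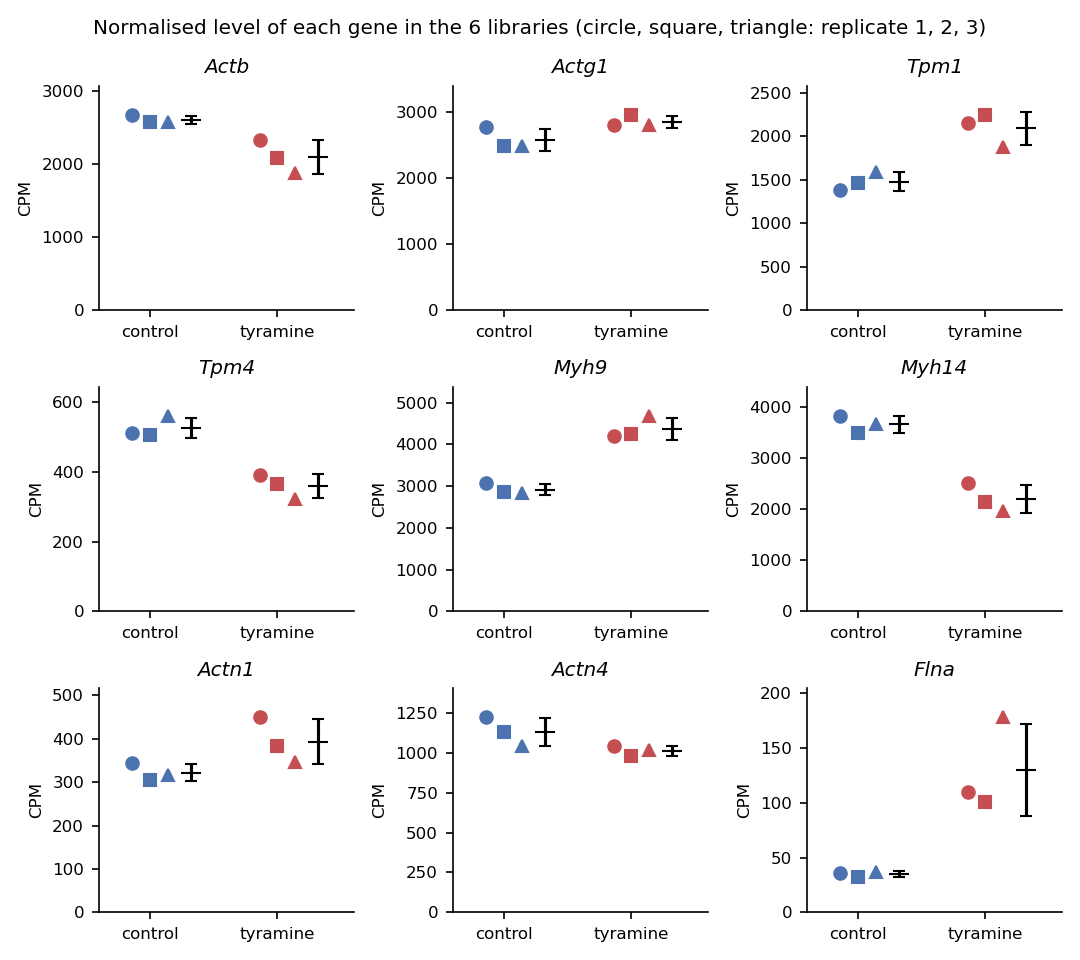
CPM of the 9 genes in each library (y axis, linear from 0), controls in blue and tyramine in red, with circles, squares and triangles for replicates 1, 2 and 3 and black bars for the mean and SD of 3 libraries. Flna, Myh9 and Tpm1 are higher in every tyramine library than in every control, and Myh14, Tpm4 and Actb are lower.

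Actb encodes beta-actin (GRCm38 chr5:142903115-142906754, minus strand). It stood at 2672, 2577 and 2581 CPM in control replicates 1 to 3 and at 2339, 2091 and 1879 CPM in tyramine replicates 1 to 3. Every tyramine library was below every control, and the tyramine libraries were spread more widely. The fitted change was a fall of 1.24-fold, a log2 difference of -0.31 (SE 0.090, edgeR adjusted p = 0.0291). That call was lost when any 1 control library or tyramine replicate 2 was left out (edgeR adjusted p = 0.0646 to 0.102 in those 4 fits).

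Actg1 encodes gamma-actin (chr11:120345690-120348542, minus strand). Its levels were 2766, 2483 and 2482 CPM in controls and 2792, 2946 and 2796 CPM with tyramine. The ranges were separate by a narrow margin, between control replicate 1 and tyramine replicate 1, and the log2 fold change of 0.14 (SE 0.077) did not pass the test (edgeR adjusted p = 0.213). Together the cytoplasmic actins took 0.567%, 0.527% and 0.510% of all counts in controls and 0.498%, 0.493% and 0.449% with tyramine, a difference in means of -0.0541 percentage points (0.534 ± 0.0292 against 0.480 ± 0.0268, SD, n = 3; exact two-sided permutation p = 0.10, the smallest that 3 against 3 can give). Set against TMM-scaled library sizes in place of totals, the difference was -0.0239 percentage points (exact permutation p = 0.4).

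The balance between the actins is a ratio within a library, so it does not depend on scaling. Log2 of Actg1 counts over Actb counts was 0.05, -0.05 and -0.06 in controls, where the genes were about level, and 0.26, 0.49 and 0.57 with tyramine, where gamma-actin counts were higher in every library. The mean difference was 0.46, a 1.38-fold shift of the ratio (exact permutation p = 0.10, and 0.10 adjusted over the 4 pairs compared). The coding sequences, 1128 bases in both genes, are 88.7% identical, but the longest annotated transcripts have no stretch of 100 bases in common. Of the 100-base windows of the Actg1 transcript, 51.1% recur exactly in 6 other annotated genes, none of which has a row in the deposited table, whereas 20 of the 1821 windows of Actb recur elsewhere. The sources used here do not say how reads that match several places were counted, so the level of Actg1 is uncertain to that extent.

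Of the 4 actin genes named for muscle, 2 had enough counts to be tested, and 1 of these fell. The share of all tested genes that fell was 13.3%. Acta1, the actin of skeletal muscle, was at 335, 279 and 360.2 CPM in controls and at 180.3, 173 and 125 CPM with tyramine, 2.04-fold lower (log2 fold change -1.03, SE 0.155, edgeR adjusted p = 0.00107). All tyramine libraries were below all controls. How much of the Acta1 transcript recurs in other genes was not measured. The smooth muscle actin Acta2 averaged 1.35 CPM in controls and 1.38 CPM with tyramine, Actg2 had at most 7 counts in any library, and the cardiac actin Actc1 was at 0 counts in all 6.

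Tropomyosin genes moved in opposite directions. Tpm1, which encodes many tropomyosin isoforms by alternative promoters and splicing (chr9:67022590-67049406, minus strand), was at 1379.7, 1459.6 and 1592 CPM in controls and at 2145, 2239 and 1880.4 CPM with tyramine. All tyramine libraries lay above the controls, with replicate 3 the closest to them. It rose 1.41-fold, a log2 difference of 0.50 (SE 0.093, edgeR adjusted p = 0.00337). Counts are per gene, so which Tpm1 isoforms were involved was not measured.

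Tpm4 encodes a tropomyosin of the non-muscle cytoskeleton (chr8:72134975-72153142, plus strand). It was at 511, 504 and 558 CPM in controls and at 391, 363 and 323 CPM with tyramine, lower in every tyramine library. The fall was 1.46-fold, a log2 difference of -0.55 (SE 0.10, edgeR adjusted p = 0.00303). The log2 ratio of Tpm4 over Tpm1 was -1.43, -1.53 and -1.51 in controls and -2.46, -2.62 and -2.54 with tyramine. The difference of -1.05, a 2.07-fold shift of the ratio, was more than 10 times the SD within either group, 0.052 and 0.083 (exact permutation p = 0.10, 0.10 adjusted over 4 pairs). Of the Tpm4 windows, 7.64% recur in 1 other gene, which has no row in the table.

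Tpm2 and Tpm3 are the other tropomyosin genes. Tpm3 averaged 999.6 ± 62.3 CPM in controls and 1185 ± 61.5 CPM with tyramine (SD, n = 3; log2 fold change 0.25, edgeR adjusted p = 0.059), and Tpm2 9.42 and 3.99 CPM (log2 fold change -1.24, edgeR adjusted p = 0.0737). Of 7 tropomyosin and tropomyosin-binding genes tested, Tmod3, which caps the slow end of tropomyosin-coated filaments, rose 1.37-fold and 6 did not pass (0 fell, 1 at an unadjusted p under 0.05 and 1 by DESeq2), with a median log2 fold change of -0.24 beside 0.00 over all tested genes. Without tyramine replicate 3, and with DESeq2 or limma-voom, the number rising was 2. Over all tested genes 12.5% rose and 13.3% fell, so 1 of 7 rising is near that share.

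Myosin II heavy chains showed the widest shift between relatives. Myh9, the heavy chain of myosin IIA (chr15:77760587-77842175, minus strand), was at 3062, 2848 and 2827 CPM in controls and at 4189, 4238 and 4671 CPM with tyramine. Tyramine replicate 3 was the highest, and the lowest tyramine library was well above the highest control. Myh9 rose 1.50-fold, a log2 difference of 0.58 (SE 0.077, edgeR adjusted p = 0.000463).

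Myh14, the heavy chain of myosin IIC, a form found at junctions and in the brush border of gut epithelium (chr7:44605803-44670843, minus strand), was at 3816, 3495 and 3655 CPM in controls and at 2502, 2133 and 1959.8 CPM with tyramine. Here tyramine replicate 3 was the lowest. Myh14 fell 1.66-fold, a log2 difference of -0.73 (SE 0.097, edgeR adjusted p = 0.000488). Myh10, the heavy chain of myosin IIB, was scarce, with means of 2.23 and 6.06 CPM (log2 fold change 1.44, edgeR adjusted p = 0.204).

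The order of the myosins was exchanged. Log2 of Myh14 over Myh9 counts was 0.32, 0.30 and 0.37 in controls and -0.74, -0.99 and -1.25 with tyramine, a mean difference of -1.32 (exact permutation p = 0.10, 0.10 adjusted over 4 pairs). Counted per exon length, Myh14 was 58.4%, 58.0% and 59.3% of the sum of both genes in controls and 40.2%, 36.1% and 32.1% with tyramine. The libraries with the larger share of Myh9 are thus all in the tyramine group.

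**Figure D2:**
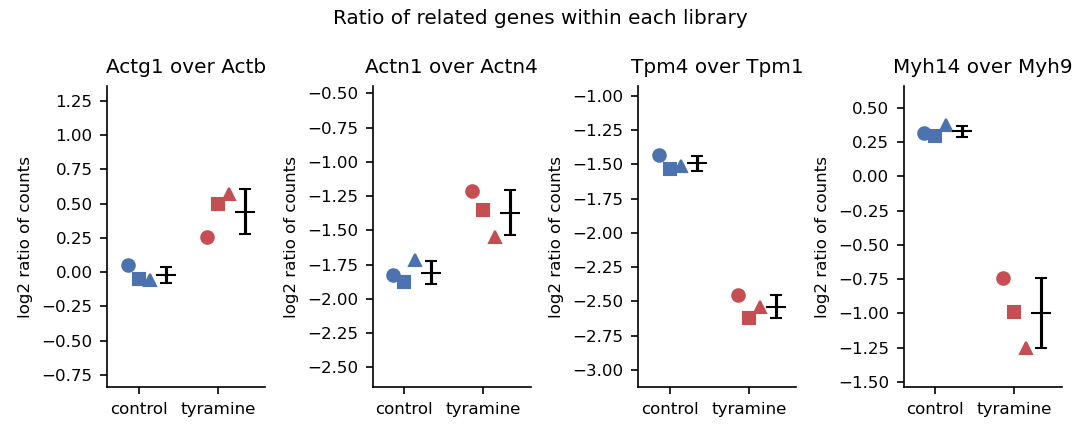
Log2 ratio of counts of the 4 pairs of related genes in each library (y axis, the same height of 2.2 log2 units in each panel), with group colours and replicate symbols as in the plot of CPM by library and black bars for the mean and SD of 3 libraries. The groups are separate in all 4 panels, by most for Myh14 over Myh9, with a mean of 0.33 in controls and all tyramine libraries at -0.74 or lower, then for Tpm4 over Tpm1, from a mean of -1.49 to -2.54.

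Among the crosslinkers, Flna stood out by size. It encodes filamin A, which joins crossing filaments and anchors them to integrins and other membrane proteins (chrX:74223461-74249820, minus strand). Its levels were 35.7, 32.5 and 37.2 CPM in controls and 109.8, 101 and 178 CPM with tyramine. All tyramine libraries were above all controls, and replicate 3 was well above replicates 1 and 2. Flna rose 3.69-fold, a log2 difference of 1.88 (SE 0.217, edgeR adjusted p = 0.0002), and without tyramine replicate 3 the log2 fold change was 1.59. The log2 difference over all 6 libraries was above those of 96.8% of tested genes.

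The alpha-actinins, which bundle filaments, did not pass the test. Actn1 (chr12:80167547-80260371, minus strand) was at 344, 306 and 316 CPM in controls and at 449.5, 383 and 347 CPM with tyramine. The groups touched almost, at control replicate 1 and tyramine replicate 3, and the log2 fold change of 0.29 (SE 0.113) did not pass the test (edgeR adjusted p = 0.092), although it did without tyramine replicate 3 (0.37, edgeR adjusted p = 0.0219).

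Actn4 (chr7:28893248-28962340, minus strand) was at 1221, 1126 and 1040.1 CPM in controls and at 1042, 978 and 1014 CPM with tyramine. Capn12, whose exons overlap those of Actn4, had 0 to 59 counts per library. Actn4 was the member whose groups overlapped, and its log2 fold change of -0.16 (SE 0.086) did not pass the test (edgeR adjusted p = 0.218). Log2 of Actn1 over Actn4 was -1.83, -1.88 and -1.72 in controls and -1.21, -1.35 and -1.55 with tyramine. The mean difference of 0.44, 1.36-fold, separated the groups (exact permutation p = 0.10, 0.10 adjusted over 4 pairs), with control replicate 3 and tyramine replicate 3 the nearest to each other.

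**Figure D3:**
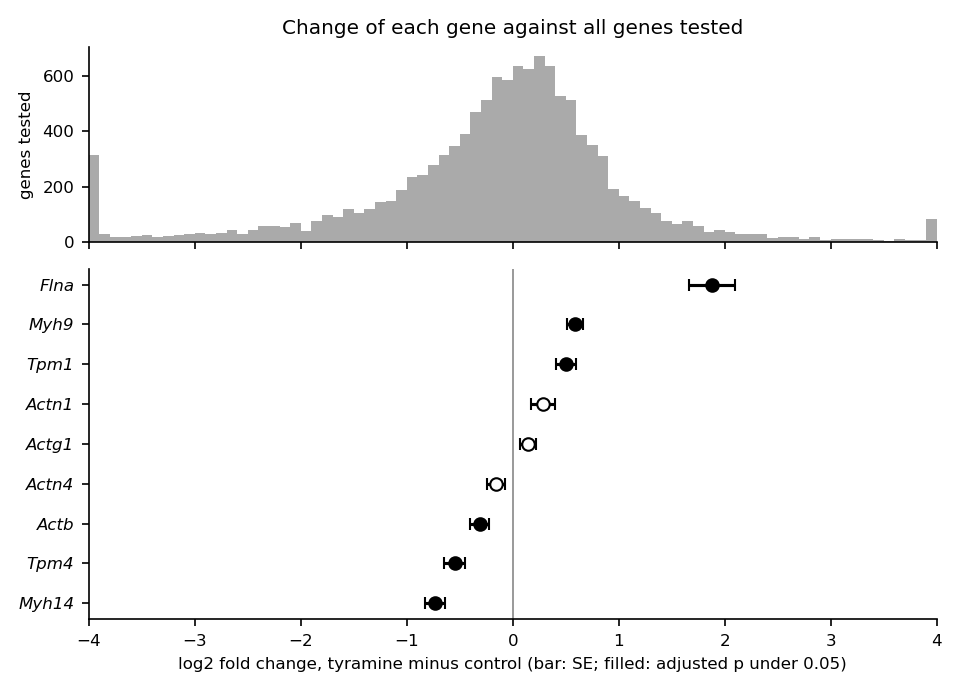
Lower panel: log2 fold change of the 9 genes (x axis, tyramine minus control, bars are SE), filled where the edgeR adjusted p was under 0.05. Upper panel: the number of tested genes at each log2 fold change, with values beyond -4 and 4 collected in the outermost bars. Only Flna, at 1.88, lies outside the range from -1 to 1.

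Levels of different genes can be compared only per length, and the lengths used were those of all annotated exons. In controls the order was Actb at 1359 ± 27.9 and Actg1 at 1320.1 ± 84.0 CPM per kilobase (SD, n = 3), then Myh14 at 553 ± 24.2, Myh9 at 392 ± 17.5, Tpm1 at 309 ± 22.5, Actn4 at 287 ± 23.0, Tpm4 at 246 ± 13.9, Actn1 at 84.7 ± 5.28 and Flna at 4.14 ± 0.286. Actb and Actg1, and likewise Tpm1 and Actn4, differed by less than the SD of Actg1 and of Actn4. With tyramine the order was Actg1 at 1457 ± 44.8, Actb at 1095 ± 119.8, Myh9 at 587 ± 35.6, Tpm1 at 437 ± 38.9, Myh14 at 333 ± 41.9, Actn4 at 257 ± 8.10, Tpm4 at 169 ± 16.0, Actn1 at 103 ± 13.7 and Flna at 15.3 ± 4.97. Actin transcripts were thus the most abundant of the set in both groups and Flna the least. The place of Tpm1 depends on the length taken for it: with its longest transcript of 2.89 kb in place of 4.78 kb of exons, it came to 511 and 723 CPM per kilobase, above Myh9 in both groups.

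The other genes of the actin cytoskeleton were read in 9 lists of textbook roles with 116 tested genes, of which 20 rose and 26 fell (median log2 fold change 0.11). Without control replicate 1, the number rising was 13. Over all tested genes 12.5% rose and 13.3% fell, which is the background for the count of each list. The genes named were taken by rule, up to 4 called genes of each list in order of p. Acta2, Actg2, Actc1, Tpm2, Tpm3, Myh10 and Srf fall outside that rule and were added after their values were seen, for their kinship to the members or their place in a list.

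In the list of other myosin II chains and regulators, which includes Myh10, 4 of 14 rose, 1 fell and 9 did not pass, with a median log2 fold change of 0.40. Ppp1r12a, the subunit that directs a phosphatase to myosin, rose 1.79-fold from 326, 332 and 305 CPM to 504, 552 and 664 CPM (edgeR adjusted p = 0.000552), and Rock2, a kinase that activates myosin II, rose 1.78-fold (edgeR adjusted p = 0.00172). Myl12a, a regulatory light chain, rose 1.57-fold (edgeR adjusted p = 0.00174). Mylk, the myosin light chain kinase, fell 3.42-fold from 91.6, 109 and 103 CPM to 18.9, 30.5 and 39.4 CPM (edgeR adjusted p = 0.000626). Its highest tyramine library was thus far below its lowest control.

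Of 18 other crosslinkers and bundlers, 2 rose, 8 fell and 8 did not pass (median log2 fold change -0.23). Over all tested genes 12.5% rose and 13.3% fell, and the number rising here is near that background. The genes that fell with the smallest p were Vil1, Espn, Lima1 and Pls1. Vil1, Espn and Pls1 encode villin, espin and plastin 1, which bundle the actin cores of microvilli, and fell 2.69-fold, 3.09-fold and 1.89-fold. Vil1 was at 2160.1, 2277 and 2129.7 CPM in controls and at 979, 849 and 617 CPM with tyramine (edgeR adjusted p = 9.09e-05). Lima1, which stabilises filaments, fell 1.84-fold. The genes that rose, named after their values were seen, were Lcp1, plastin 2 of blood cells (log2 fold change 1.24), and Flnc, filamin C, which had 2, 2 and 1 counts in the controls but 217, 233 and 37 in the tyramine libraries. The control counts of Flnc are under 3 per library, so no fold is given. With limma-voom, or with genes under a mean of 5 CPM left out, the number rising was 1.

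Nucleation genes, whose products start new filaments, had 6 of 21 rising and 0 falling, with a median log2 fold change of 0.31 (at an unadjusted p under 0.05, 0 fell). Cttn, cortactin, which stabilises branched networks, rose 1.37-fold from 951, 958 and 897 CPM to 1275, 1248 and 1307 CPM (edgeR adjusted p = 0.00206). Abi1 and Nckap1, of the complex that activates branching, rose 1.68-fold and 1.27-fold, and Arpc2, of the branching complex itself, 1.24-fold. Without any 1 control library, the number rising was 2, and Arpc2 and Nckap1 lost their calls. With sizes taken as library totals, 2 of these genes rose and 1 fell.

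Among 22 genes that bind monomers or sever and cap filaments, 4 rose, 4 fell and 14 did not pass (median log2 fold change 0.24), where 12.5% of all tested genes rose and 13.3% fell. Scin, a severing protein, fell 5.78-fold (edgeR adjusted p = 0.00194) and Twf1, which binds monomers, 1.72-fold (0.00223 by the same edgeR test). Cap1 and Dstn, which recycle and disassemble actin, rose 1.40-fold and 1.32-fold. Without control replicate 1 or tyramine replicate 2, the number rising was 2.

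In the list of focal adhesion and stress fibre linkers, 3 of 20 rose, 5 fell and 12 did not pass (median log2 fold change -0.03), where 12.5% of all tested genes rose and 13.3% fell. The number rising is near that background. Pdlim7 and Pdlim1, adaptors that bind alpha-actinin or tropomyosin on filaments, rose 4.29-fold and 2.82-fold. Pdlim7 was at 20.4, 21.8 and 20.5 CPM in controls and at 83.9, 76.3 and 109 CPM with tyramine (edgeR adjusted p = 3.52e-05). Parva and Tns4, a parvin and a tensin of integrin adhesions, fell by 2.22 and 2.82 on the log2 scale. Without any 1 control library, the number falling was 3.

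All 7 tested genes of the cytokinetic ring, the actomyosin belt that divides cells, fell (median log2 fold change -3.58), and 6 or 7 fell when each library was left out. Cit, citron kinase, fell by 6.05 on the log2 scale, Anln, anillin, 12.0-fold and Ect2, an activator of RhoA at the cell equator, 2.58-fold. The counts of Iqgap3 were 559, 610 and 450 in the control libraries against 0, 2 and 0 in the tyramine libraries, a pooled ratio of 754 (95% counting interval 208 to 6234, which covers counting error only). Myh9, a myosin heavy chain of that ring, is among the genes that rose.

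Serum response factor and its actin-sensing cofactors drive many cytoskeletal genes in other settings. Of the 5 tested genes of that list, 0 passed the edgeR test and 0 were past an unadjusted p of 0.05. DESeq2 and limma-voom also called 0. Over all tested genes 25.8% passed the edgeR test, so 0 of 5 does not show that these genes were unchanged. Mkl1, the gene with the smallest p, averaged 7.82 ± 3.47 CPM in controls and 15.3 ± 5.08 CPM with tyramine (SD, n = 3; log2 fold change 0.97, edgeR adjusted p = 0.148), and Srf itself 17.8 and 19.1 CPM (log2 fold change 0.11, edgeR adjusted p = 0.828).

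**Figure D4:**
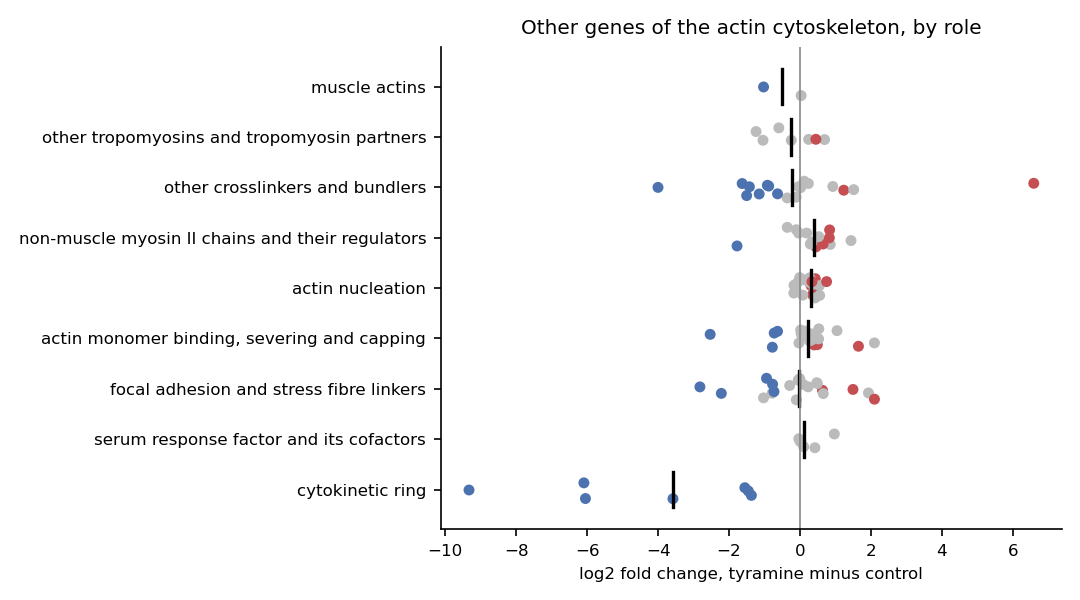
Log2 fold change (x axis, tyramine minus control) of each tested gene of the 9 lists (rows), red where it rose, blue where it fell and grey where the edgeR adjusted p was 0.05 or more. Black lines are list medians, from -3.58 for the cytokinetic ring to 0.40 for the myosin II chains and regulators.

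The 250 bases before the RefSeq start site (GRCm38.p6) were read for 8 members; Actb had no entry. Motifs were searched on both strands: the CArG box, which binds serum response factor, GGAATG, the core bound by TEAD factors, and TGANTCA, a pattern wider than the AP-1 site. A match to the CArG box, CCATATATGG, was in the window of Actg1 only, with its first base 90 bases before the start. Of all 32851 windows of this length, 1.47% held a match. The similar run ccatatatag in the window of Tpm1 was not counted as a match. GGAATG was in the windows of Tpm1, Flna and Actn4, and in 12.6% of all windows. TGANTCA was in that of Actn4, and in 6.75% of all windows. The match in Actn4 is TGAATCA, which is not the AP-1 site itself. These are matches of letters and not measured binding, and 2 of the genes that hold them, Actg1 and Actn4, did not pass the test. The windows of the 3 rising genes and of Actg1 are shown 5′ to 3′ on the strand of the gene, all minus, with motif matches in capitals. RefSeq starts can differ from the GENCODE spans given above: the window of Flna lies inside the span of its gene, that of Tpm1 mostly so, with its motif match, and that of Actg1 overlaps the end of its gene, whereas that of Myh9 lies outside.
Flna, chrX:74246535-74246784: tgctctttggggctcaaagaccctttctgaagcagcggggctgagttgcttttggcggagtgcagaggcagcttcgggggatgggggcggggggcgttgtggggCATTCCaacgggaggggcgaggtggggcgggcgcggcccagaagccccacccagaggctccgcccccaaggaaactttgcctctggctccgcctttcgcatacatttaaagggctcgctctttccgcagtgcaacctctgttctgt
Tpm1, chr9:67049214-67049463: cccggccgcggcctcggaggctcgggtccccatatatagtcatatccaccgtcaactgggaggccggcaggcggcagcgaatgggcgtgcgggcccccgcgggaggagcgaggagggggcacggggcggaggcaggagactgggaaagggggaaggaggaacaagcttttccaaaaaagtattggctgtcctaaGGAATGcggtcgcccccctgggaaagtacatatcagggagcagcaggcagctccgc
Myh9, chr15:77842176-77842425: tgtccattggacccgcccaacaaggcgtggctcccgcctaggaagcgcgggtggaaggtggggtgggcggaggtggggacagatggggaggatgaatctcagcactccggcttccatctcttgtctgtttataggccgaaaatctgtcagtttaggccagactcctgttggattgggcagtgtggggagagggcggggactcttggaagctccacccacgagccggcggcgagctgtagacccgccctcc
Actg1, chr11:120348496-120348745: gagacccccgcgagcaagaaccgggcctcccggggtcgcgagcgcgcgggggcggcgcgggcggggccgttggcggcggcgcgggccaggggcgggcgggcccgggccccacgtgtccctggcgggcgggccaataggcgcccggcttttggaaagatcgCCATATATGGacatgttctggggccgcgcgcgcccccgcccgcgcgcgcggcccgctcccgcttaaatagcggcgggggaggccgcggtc
In the Flna window GGAATG is on the opposite strand, first base 146 bases before the start, and in that of Tpm1 it begins 56 bases before the start, on the strand of the gene. The window of Myh9 held none of these motifs. Over the 8 windows G and C made up 62.4% (Myh9) to 79.2% (Actg1) of bases.

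Genes closest in profile were found by rule among the 4392 tested genes whose log2 CPM averaged 5 or more, as the smallest Euclidean distance over the 6 libraries between log2 CPM profiles centred on their means. For Actb they were Gars, Snx9 and Cog6, at distances of 0.07, 0.08 and 0.08. Their log2 fold changes were -0.30, -0.31 and -0.37, beside the -0.31 of Actb, and Snx9 and Cog6 did not pass the test (edgeR adjusted p = 0.0631 and 0.1). For Myh14 they were Il22ra1, Ndufa13 and Stk38, at 0.12, 0.13 and 0.13, with log2 fold changes of -0.80, -0.67 and -0.74 beside the -0.73 of Myh14. Like fold changes follow from the rule, which used the same 6 libraries.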

How the data were processed

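RNA-seq libraries of 6 mouse organoid cultures were analysed from 1 table of raw counts per gene symbol deposited by the authors. Per the labels' protocols, a stranded mRNA kit with molecular identifiers was used. The submitters' processing notes name STAR 2.5.3a and mm10; how counting was done (program, strand setting, annotation, use of identifiers) is stated in none of the sources used here, so overlapping or near-identical genes are uncertain.

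From the counts, 12139 of 24786 rows passed edgeR's filterByExpr (minimum count 10, minimum total 15) and were tested with edgeR 4.0.16 (R 4.3.3), quasi-likelihood F-test, TMM factors 0.962 to 1.04, group as the only term, Benjamini-Hochberg adjustment over all tested genes and a threshold of 0.05. CPM use TMM-scaled sizes, and log2 fold changes are signed as tyramine minus control. SE is the log2 fold change over the square root of F. Log2 ratios within a library used a pseudocount of 0.5 and exact permutation tests. Gene positions and lengths are from GENCODE M21 (GRCm38, the same assembly as mm10).

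Members and lists were chosen with earlier results of these data known. Named genes were the 9 members, up to 4 called genes per list (smallest p first, or the smallest p where none was called) and the genes closest in profile to Actb and Myh14; the report says where a gene of the lists was named outside this rule. On simulated counts (11877 genes tested), 50 genes were altered at each of 4 sizes: the share called was 8% at 1.5-fold, 24% at 2-fold, 66% at 4-fold and 58% at 8-fold. Of 11680 unaltered genes, 5 were called. The 50 at each size include any that the filter removed. In the data 3127 of 12139 tested genes were called, far more than were altered here. The adjusted threshold was thus stricter on the simulated counts, and these shares are not the sensitivity of the main test. Alternatives were other scalings, filters and tests (DESeq2 1.42.0, limma-voom 3.58.1), a replicate block, and removal of each library in turn. The main results use all 6 libraries.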

Additional observations from a re-analysis of the deposited data

How the results depend on the processing

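The directions of all 9 members held in all 14 alternative fits of the counts. Flna, Myh9, Tpm1, Myh14 and Tpm4 were called in all 14, Actb in 10, Actn1 in 1 and Actg1 and Actn4 in 0. Leaving out each library in turn gave 3 to 4 members rising and 2 to 3 falling. It gave 13 to 24 rising and 23 to 25 falling genes over the pathway lists, and 934 to 1510 rising and 1035 to 1797 falling genes over all genes tested; the low counts came without a control library. Same-numbered libraries did not deviate together (correlations of -0.02, -0.01 and 0.01), so the numbers are not taken as pairs. With the replicate block, 3 members rose and 3 fell, 15 and 25 pathway genes rose and fell, and 1204 and 1390 of all genes. Ratios within a library kept their direction in every alternative. With 3 libraries per group, their permutation tests cannot reach 0.05, so that says nothing of significance.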

Other observations

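Sums over related genes, chosen after the values were seen, differed between groups by a smaller ratio than either part. The genes of each pair had fold changes of opposite sign, so the ratio of the sum had to lie between theirs. A smaller change of the sum thus largely follows from arithmetic. Myh9 and Myh14 together came to 6877, 6343 and 6482 CPM in controls and 6692, 6372 and 6631 CPM with tyramine (means 6567 ± 277 and 6565 ± 169.9, SD, n = 3), and the libraries of the groups overlapped. Actn1 and Actn4 together came to 1451 ± 106 and 1404 ± 75.2 CPM, and Actb and Actg1 to 5187 ± 218 and 4948 ± 241 CPM. Tpm1 and Tpm4 together came to 2002 ± 134 and 2447 ± 214 CPM, with every tyramine library above every control. These sums are of counts, not per length, and no test was made on them.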
